A study of Mus musculus with 6 samples.

Results

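Autophagy and lysosome genes are described here through 5 genes, Sesn1, Ulk1, Bnip3, Ctsb and Lamp1, out of 3162 genes in the deposited files. They were selected on their FPKM values in these same libraries, fasted against fed, so their differences between the groups are given as a description and carry no test. Epididymal white adipose tissue, the visceral fat around the epididymis, came from male wild-type C57BL/6J mice aged 16 weeks. One group was fasted for 24 h and the other had been fed normally, with 3 biological replicates in each. Whole tissue was sequenced, so less RNA per cell and fewer cells of a type cannot be told apart. The tables hold only a chosen part of the transcriptome, and sequencing depth is unknown.

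Macroautophagy encloses cytoplasm or organelles in a double membrane and delivers them to the lysosome for breakdown. Nutrient shortage lowers the activity of the kinase complex mTORC1 and raises that of AMPK, which frees the ULK1 complex to start the process. ATG8-family proteins and cargo receptors then build and load the autophagosome, and lysosomal hydrolases, kept acid by the V-ATPase, digest its content. In fat, autophagy is known for its part in adipocyte differentiation, in the removal of mitochondria and in the turnover of lipid droplets. Among the 5 genes, Sesn1 encodes sestrin 1, a stress-inducible protein that restrains mTORC1. Ulk1 encodes the kinase that starts autophagosome formation, and Bnip3 encodes a receptor in the outer mitochondrial membrane that recruits autophagosomes to mitochondria. Ctsb encodes cathepsin B, a lysosomal cysteine protease, and Lamp1 encodes an abundant glycoprotein of the lysosomal membrane.

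The promoter windows below run from 250 bases before to 50 bases after the annotated gene start, on the coding strand, from RefSeq (GRCm38.p6), and are shown because the 3 autophagy genes and the lysosomal gene among them moved in opposite directions. Of the 5 genes, 4 matched this table, Sesn1 with more than one start. Capitals mark CACGTG (the E-box that MiT/TFE factors can bind in lysosomal genes), ACGTG (the core of the hypoxia response element, contained in CACGTG) and GTAAACA (a forkhead-type motif), each searched on both strands.
Lamp1, chr8:13158911-13159210, plus strand: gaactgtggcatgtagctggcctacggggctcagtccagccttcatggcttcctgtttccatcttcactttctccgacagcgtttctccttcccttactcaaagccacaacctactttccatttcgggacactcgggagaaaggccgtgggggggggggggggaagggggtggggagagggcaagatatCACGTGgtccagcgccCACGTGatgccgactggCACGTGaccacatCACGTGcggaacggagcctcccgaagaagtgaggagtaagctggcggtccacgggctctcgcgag
Bnip3, chr7:138909457-138909756, minus strand: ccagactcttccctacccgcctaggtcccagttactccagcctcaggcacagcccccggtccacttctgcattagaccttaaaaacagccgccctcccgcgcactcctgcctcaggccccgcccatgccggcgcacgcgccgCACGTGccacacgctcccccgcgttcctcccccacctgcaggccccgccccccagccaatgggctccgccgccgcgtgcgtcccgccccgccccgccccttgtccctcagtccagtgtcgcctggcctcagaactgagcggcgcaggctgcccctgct
Ulk1, chr5:110810032-110810331, minus strand: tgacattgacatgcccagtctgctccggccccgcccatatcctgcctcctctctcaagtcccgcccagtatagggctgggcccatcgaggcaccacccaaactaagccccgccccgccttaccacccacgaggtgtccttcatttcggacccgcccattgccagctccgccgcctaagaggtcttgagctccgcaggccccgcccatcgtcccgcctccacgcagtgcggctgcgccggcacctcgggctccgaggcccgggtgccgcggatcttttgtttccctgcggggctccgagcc
Sesn1, chr10:41810324-41810623, plus strand: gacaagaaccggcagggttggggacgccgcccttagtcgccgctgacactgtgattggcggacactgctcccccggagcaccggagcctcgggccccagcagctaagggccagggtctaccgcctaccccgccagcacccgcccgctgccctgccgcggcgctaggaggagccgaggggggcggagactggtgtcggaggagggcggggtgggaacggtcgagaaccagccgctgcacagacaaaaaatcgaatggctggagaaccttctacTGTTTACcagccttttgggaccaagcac

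The Lamp1 window held CACGTG at 4 places, starting 61, 45, 28 and 15 bases before the gene start. Of 32851 promoters of the same length, 7.15% held this motif at least once and 8 (0.0244%) held it at least 4 times. The longer form TCACGTGA, in 0.974% of promoters, was in none of the 5 member windows (0). Bnip3 held CACGTG once, 108 bases before the start, and no other ACGTG than the ones within it, where 19.6% of all promoters held ACGTG. Sesn1 held GTAAACA once, on the opposite strand and 22 bases after the first of its starts, where 3.65% of promoters held it. The window of the other Sesn1 start, chr10:41887189-41887488, and that of Ulk1 held none of these letters. All of these windows were rich in G and C, from 60.7% in Lamp1 to 71.7% in Bnip3, against a median of 52.7% over all promoters. A match describes the letters and does not show binding.

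The autophagy genes were higher after fasting. Ulk1 (ENSMUSG00000029512, chromosome 5, 110784488 to 110810097, minus strand, GRCm38) had 38.2, 36.4 and 31.5 FPKM in the fasted libraries, against 15.5, 14.7 and 14.9 FPKM in the fed libraries. All fasted values were above all fed values, and the fed libraries lay within 1 FPKM of each other. The means were 35.4 ± 3.45 FPKM in fasted and 15.0 ± 0.45 FPKM in fed tissue (SD, n = 3 each), a log2 fold change of 1.18 ± 0.12 (SE) on the log2(FPKM + 1) scale. FPKM is scaled to transcript length and library size, so levels of different genes can be set side by side.

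Sesn1 (ENSMUSG00000038332, chromosome 10, 41809935 to 41908424, plus strand) had 39.4, 50 and 30.9 FPKM in fasted libraries, against 14.0, 20.7 and 20.4 FPKM in fed libraries. The groups did not overlap, but both were wide, with a coefficient of variation of 23.9% in fasted and 20.7% in fed tissue, against 9.77% in fasted and 3.00% in fed tissue for Ulk1. Fed replicate 1 was the lowest fed library for Sesn1 and the highest for Ulk1. The log2 fold change of Sesn1 was 1.08 ± 0.22.

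Bnip3 (ENSMUSG00000078566, chromosome 7, 138890836 to 138909519, minus strand) was the most abundant of the 3 autophagy genes. It had 816, 1036 and 808 FPKM in fasted libraries, against 497, 399 and 535 FPKM in fed libraries, a log2 fold change of 0.89 ± 0.17. Fasted replicate 2 stood above the other fasted libraries, as it did for Sesn1, and fed replicate 2 was the lowest of all. Transcripts of 6 other annotated genes, 4 of them pseudogenes, matched the longest Bnip3 transcript at 93.4% to 99.7% identity over at least 300 bases. How the authors' counting shared reads among them is not given, so the level of Bnip3 is uncertain.

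The lysosomal genes were lower after fasting. Ctsb (ENSMUSG00000021939, chromosome 14, 63122462 to 63145923, plus strand) had 558, 675 and 837 FPKM in fasted libraries, against 1174, 1500 and 1437 FPKM in fed libraries. Every fasted value was below every fed value. The means were 690 ± 140 FPKM in fasted and 1370.4 ± 173 FPKM in fed tissue (SD, n = 3 each), a log2 fold change of -1.0 ± 0.18. Up to 774 bases of one exon of Ctsb overlap an exon of Fdft1, a sterol synthesis gene on the opposite strand that is not analysed here. The values carry no strand information, so reads from the 2 genes cannot be told apart there.

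Lamp1 (ENSMUSG00000031447, chromosome 8, 13159161 to 13175338, plus strand), whose promoter holds the 4 E-boxes shown above, had 171, 214 and 227 FPKM in fasted libraries. The fed libraries had 317, 348 and 376 FPKM, with no overlap, and the log2 fold change was -0.77 ± 0.15. For both lysosomal genes fasted replicate 1 was the lowest of all libraries and fed replicate 1 the lowest of the fed ones. An exon of Grtp1, on the opposite strand, overlaps 177 bases of Lamp1 and is not analysed here.

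**Figure D1:**
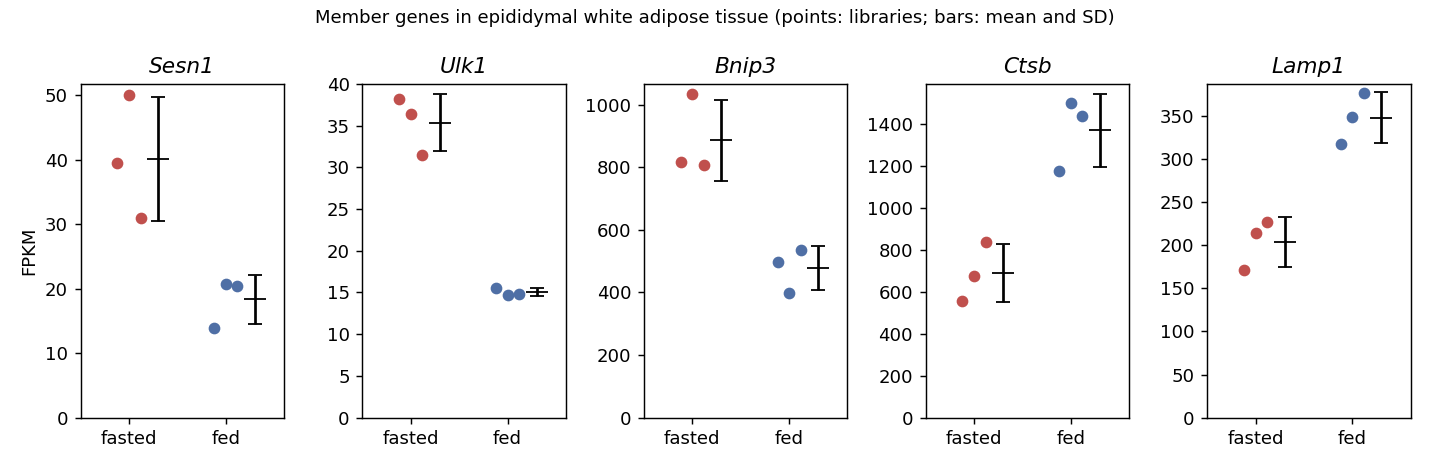
FPKM of Sesn1, Ulk1, Bnip3, Ctsb and Lamp1 in each library, fasted left of fed, with bars for the mean and SD of 3 libraries and axes that start at 0. The fasted points lie above the fed points in the first 3 panels and below them in the last 2.

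Non-overlap by itself was the rule in these tables. All 5 genes separated the groups completely, and so did 93.4% of the 3162 genes, so nothing is read from it. The median log2 fold change over the 2999 genes tested, those averaging 1 FPKM or more, was -0.34. It was -0.15 when libraries were rescaled by the median ratio of all genes, and -0.21 with quantile scaling. Relative to that median, Ulk1 stood at 1.52 under all 3 scalings (none, median-ratio and quantile) and Lamp1 at -0.43, -0.42 and -0.33, in that order. The 3 autophagy genes kept a positive and the 2 lysosomal genes a negative fold change under each scaling tried.

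The order of the levels changed between the groups. In fasted tissue the means ran from Bnip3 (887 ± 129 FPKM) through Ctsb (690 ± 140), Lamp1 (204 ± 28.9) and Sesn1 (40.1 ± 9.57) to Ulk1 (35.4 ± 3.45). In fed tissue Ctsb (1370.4 ± 173 FPKM) came first, then Bnip3 (477 ± 70.5), Lamp1 (347 ± 29.5), Sesn1 (18.3 ± 3.79) and Ulk1 (15.0 ± 0.45). Sesn1 and Ulk1 overlapped in both groups, and Bnip3 and Ctsb overlapped in fasted tissue. Among all genes held, Ctsb stood at percentile 98.7 in fasted and 99.5 in fed tissue, and Ulk1 at percentile 73.6 in fasted and 49.9 in fed tissue.

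Ratios within a library do not depend on its scaling and set the autophagy genes against the lysosomal ones directly. The ratio of Ulk1 to Lamp1 was 0.223, 0.170 and 0.139 in fasted libraries, against 0.0489, 0.0421 and 0.0395 in fed libraries, so that the mean fasted ratio was 4.07 times the fed one. The ratio of Ulk1 to Ctsb was 0.0684, 0.0539 and 0.0376 in fasted libraries, against 0.0132, 0.00978 and 0.0103 in fed libraries. Both ratios were smallest, among fasted libraries, in replicate 3. The ratio of Bnip3 to Ctsb was 1.46, 1.53 and 0.966 in fasted libraries and 0.423, 0.266 and 0.372 in fed libraries, so Bnip3 went above Ctsb in 2 of the 3 fasted libraries. Within each of these 2 sets the ratios moved less. Sesn1 is counted here among the autophagy genes, while the lists below place it upstream. Ctsb over Lamp1 was 3.37 ± 0.29 in fasted and 3.94 ± 0.32 in fed tissue, and Sesn1 over Ulk1 was 1.13 ± 0.21 in fasted and 1.23 ± 0.28 in fed tissue (SD, n = 3 each). The 5 genes had been chosen for moving in these directions, so the ratios restate that choice within each library.

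**Figure D2:**
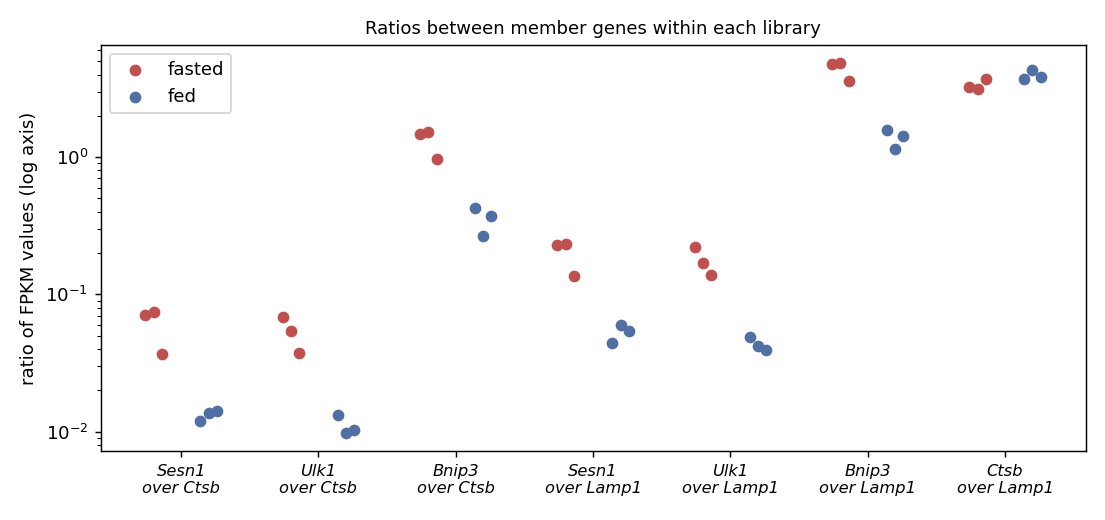
Ratios of FPKM values between pairs of member genes within each library, on a log axis, with fasted libraries left of fed libraries. All 6 ratios of an autophagy gene to a lysosomal gene are higher in every fasted library, whereas Ctsb over Lamp1 lies between 3.16 and 3.69 in fasted and between 3.70 and 4.31 in fed libraries.

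The genes most like each member, by the root mean square difference of centred log2(FPKM + 1) profiles over the 6 libraries, were sought among tested genes with a symbol. For Ulk1 they were Mxi1 (0.063), Irx3 (0.069) and Eif4b (0.082), and for Sesn1 they were Anp32a (0.079), Ednrb (0.090) and Fam20a (0.14). For Bnip3 they were Gpx1 (0.060), Fam213a (0.072) and Gphn (0.078). For Ctsb they were Oxct1 (0.054), Plod3 (0.069) and Pgam1 (0.074), and for Lamp1 they were Fcor (0.052), Tubg1 (0.072) and Smpd1 (0.075). Smpd1, acid sphingomyelinase, was the only lysosomal gene of the lists used here among these 15. Between members the difference was 0.15 for Ctsb and Lamp1, 0.22 for Ulk1 and Bnip3, and 0.25 for Ulk1 and Sesn1. It was 0.86 to 1.13 between Sesn1, Ulk1 or Bnip3 and a lysosomal member.

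The wider pathway was read from 11 role lists with 245 genes, of which 70 were in the files and tested, the 5 members among them. Expression was compared by limma with Benjamini-Hochberg adjustment over all 2999 genes tested, at an adjusted p of 0.05. Of all genes tested 41.1% were called higher and 49.4% lower in fasted tissue, and each count below is to be read against these shares. Without the members, the autophagy arm (initiation, ATG8 conjugation and cargo receptors) had 13 genes, of which 10 were higher and 3 lower. The lysosome arm (proteases, other hydrolases, membrane proteins, V-ATPase and enzyme sorting) had 32 genes, of which 7 were higher, 24 lower and 1 was not called. The median log2 fold change was 0.59 in the autophagy arm and -0.62 in the lysosome arm, against -0.34 over all genes tested. As a share, 76.9% of the autophagy arm was higher and 75.0% of the lysosome arm lower. With median-ratio scaling the autophagy arm had 10 higher and 1 lower, and the lysosome arm 7 higher and 15 lower, where 1237 and 787 of all 2999 genes were called. Lower calls of the lysosome arm numbered 14 without fasted replicate 1 and 15 without fed replicate 2. Over all genes tested, 1223 and 1118 were lower in these 2 settings, against 1482 with all libraries. The files hold genes that differ between these libraries, so neither count is independent evidence of a direction.

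The nutrient sensing list holds genes upstream of mTORC1 and AMPK and also parts of the 2 complexes themselves. Of its 16 genes besides Sesn1, 8 were higher, 7 were lower and 1 was not called. Ddit4, whose product REDD1 inhibits mTORC1, had 137, 195 and 137 FPKM in fasted libraries, against 26.5, 27.3 and 33.2 FPKM in fed libraries (log2 fold change 2.38 ± 0.17, limma adjusted p = 0.000314). Every fasted value was more than 4 times every fed value. Sesn2, the sestrin gene related to Sesn1, rose by about as much (1.08 ± 0.26, adjusted p = 0.00768), and so did Flcn (1.19 ± 0.22), encoding folliculin, which acts on the Rag GTPases. Tsc1 (0.44 ± 0.13), a subunit of the complex that switches off Rheb, and Stk11 (0.56 ± 0.13), the AMPK kinase LKB1, rose less. Prkag3, an AMPK gamma subunit gene, fell to 0.39, 0.23 and 0.26 FPKM in fasted libraries, against 3.46, 4.85 and 2.27 FPKM in fed libraries (-1.77 ± 0.23). At such low levels the size depends on the pseudocount, and was -3.16 at 0.1 and -0.68 at 5. Deptor (-1.27 ± 0.25), an mTOR-binding inhibitor, Lamtor1 (-0.84 ± 0.14), the Ragulator subunit that anchors the complex to the lysosome, and Prkag2 (-0.74 ± 0.19) also fell. Prkaa2, an AMPK catalytic subunit gene, had a log2 fold change of -0.29 ± 0.17 and was not called (adjusted p = 0.138), though it was with quantile scaling (-0.44, adjusted p = 0.0295). Of the transcription factor list 2 of 10 genes were held and both rose, Mitf (0.84 ± 0.16, and 0.46 at a pseudocount of 5), of the MiT/TFE family, and Zkscan3 (0.73 ± 0.14), known from human cells as a repressor of autophagy genes.

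At the step of initiation Ulk1 rose, while its relative Ulk2 moved about as much as the median gene tested. That median log2 fold change was -0.34, and -0.15 with median-ratio scaling. Ulk2 had 11.5, 11.1 and 11.9 FPKM in fasted libraries, against 14.8, 15.7 and 15.3 FPKM in fed libraries. It fell with a log2 fold change of -0.38 ± 0.11 (adjusted p = 0.0159), a call that did not hold after median-ratio scaling (-0.19, adjusted p = 0.157) nor without fasted replicate 2 (-0.36, adjusted p = 0.059). It was lost as well when adjusted over all annotated genes, and over its 14 alternatives the adjusted p ran from 0.0143 to 0.295. In fasted tissue Ulk1 averaged 35.4 ± 3.45 FPKM and Ulk2 11.5 ± 0.39 FPKM, whereas in fed tissue they averaged 15.0 ± 0.45 and 15.2 ± 0.43 FPKM (SD, n = 3 each). Wdr45 (0.55 ± 0.14), which binds phosphoinositides on the forming membrane, and Atg2b (0.46 ± 0.13), a lipid transfer protein that works with it, rose.

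The ATG8 family held genes that rose and genes that fell. Gabarapl1 had 233, 399 and 281 FPKM in fasted libraries, against 148, 89.6 and 145 FPKM in fed libraries (1.25 ± 0.26, adjusted p = 0.00524). Adjusted over all annotated genes its call was lost (adjusted p = 0.0971), as were those of Map1lc3b (0.104) and Map1lc3a (0.1). Map1lc3b, encoding LC3B, rose (0.82 ± 0.17), while Map1lc3a, encoding LC3A, fell to 134, 132 and 142 FPKM in fasted libraries, against 181, 223 and 218 FPKM in fed libraries (-0.60 ± 0.12, and -0.29 with quantile scaling). Atg10, the E2-like enzyme that conjugates ATG12, fell (-0.50 ± 0.15) but was not called with median-ratio scaling (-0.32, adjusted p = 0.0667) or when adjusted over all annotated genes, with adjusted p of 0.00746 to 0.276 over its 14 alternatives. The pairs Ulk1 and Ulk2, and Map1lc3a and Map1lc3b, were set side by side after their values had been seen.

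All 6 cargo receptor genes measured besides Bnip3 rose, of 19 listed with it, and 5 of these calls held with both scalings and in every set of 5 libraries. Bnip3l, encoding the related mitochondrial receptor NIX, had 116, 121 and 109 FPKM in fasted libraries, against 63.0, 47.8 and 55.8 FPKM in fed libraries (1.05 ± 0.13, adjusted p = 0.00126). The mitophagy kinase gene Pink1 (0.61 ± 0.13), the ubiquitin-binding receptor genes Optn (0.94 ± 0.22) and Nbr1 (0.59 ± 0.12) and Retreg1 (1.13 ± 0.20), a receptor for endoplasmic reticulum, rose as well. The fold change of Retreg1, which averaged 3.44 FPKM in fasted and 1.01 FPKM in fed tissue, was 0.48 at a pseudocount of 5. The 2 fusion genes measured fell, Ykt6 (-0.61 ± 0.12), a SNARE, and Vac14 (-0.93 ± 0.18), the scaffold of the PIKfyve complex.

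**Figure D3:**
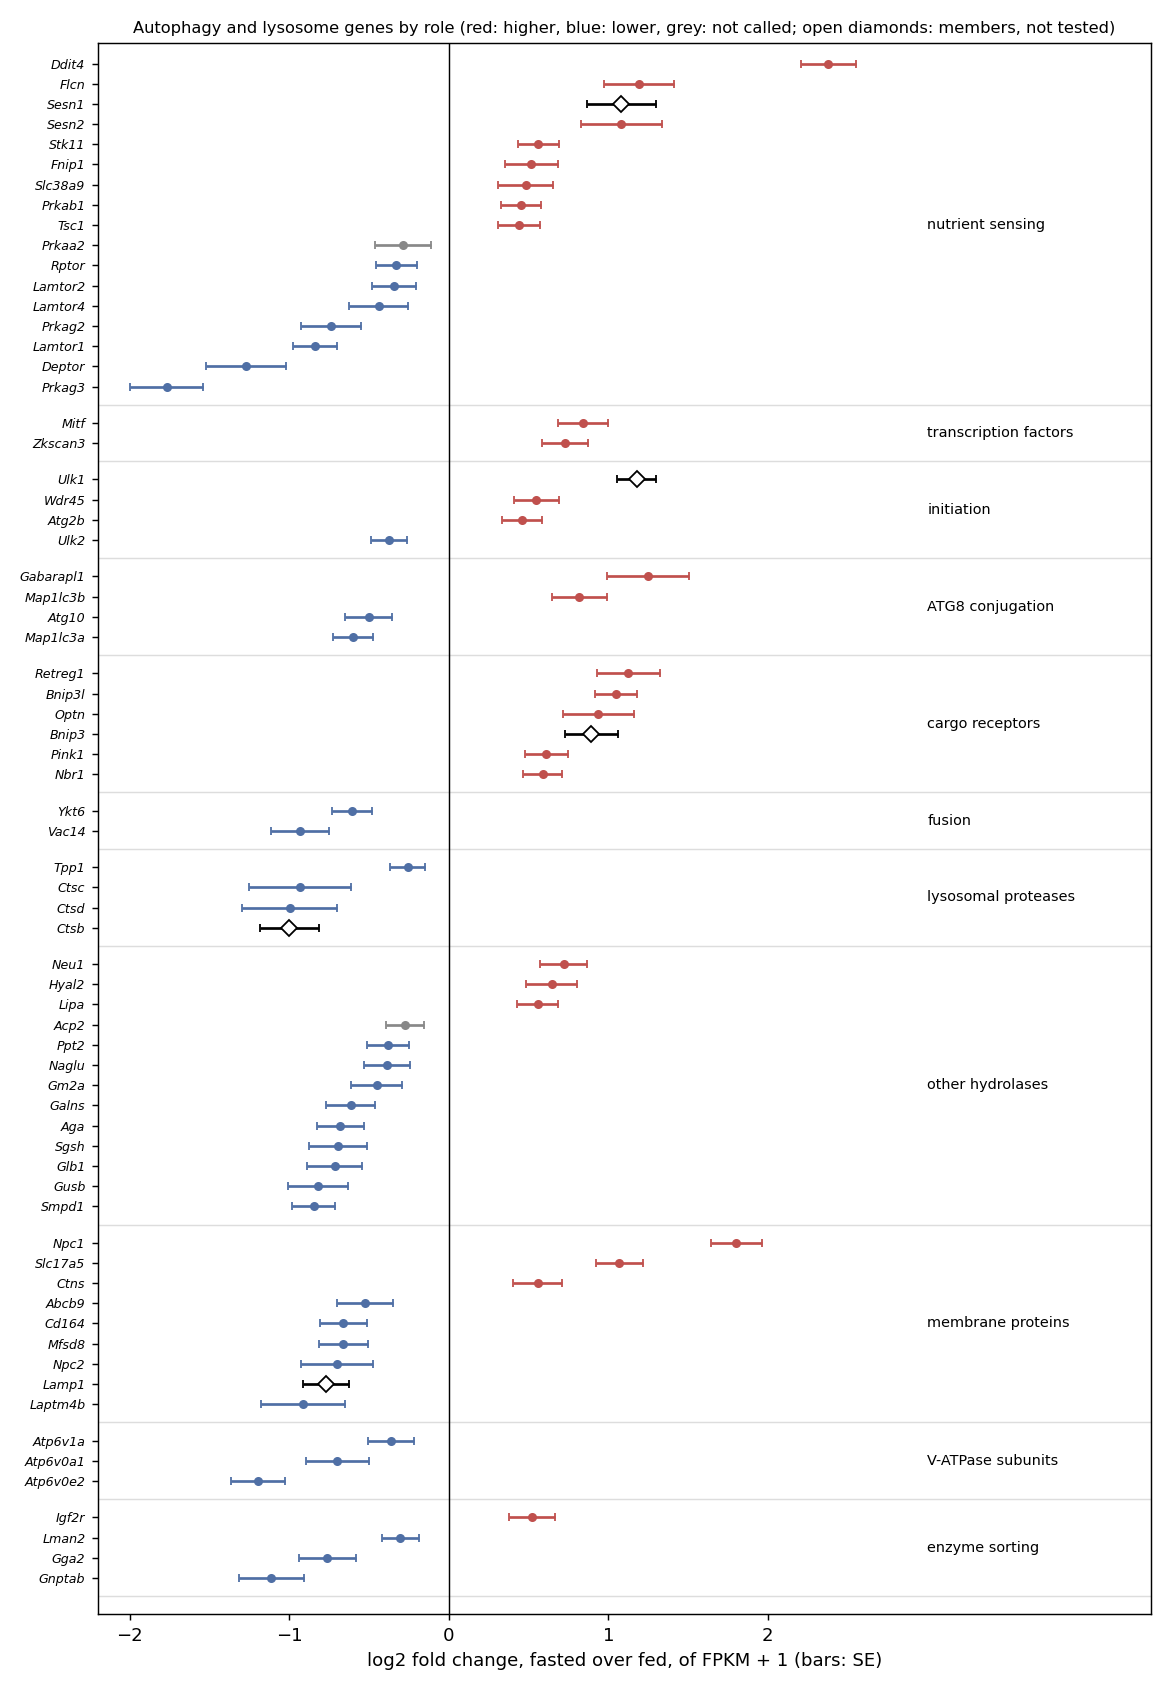
Log2 fold change of FPKM + 1, fasted over fed, with its SE for 68 of the 70 list genes held, grouped by role and ordered by value. Cargo receptors lie right of 0 and proteases, V-ATPase subunits and fusion genes left of it, while nutrient sensing spans from -1.77 to 2.38.

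Among lysosomal proteases, the 3 genes measured besides Ctsb were all lower. Ctsd, encoding the aspartic protease cathepsin D, had 254, 391 and 552 FPKM in fasted libraries, against 569, 929 and 832 FPKM in fed libraries (-1.0 ± 0.30, adjusted p = 0.0161). Its fold change was -0.85 without fed replicate 2 and no longer passed (adjusted p = 0.0531). Nor did it pass when adjusted over all annotated genes, the top of a range of 0.00853 to 0.298 over its 14 alternatives. Ctsc (-0.93 ± 0.32), the dipeptidyl peptidase cathepsin C, and Tpp1 (-0.26 ± 0.11), tripeptidyl peptidase 1, were called but lost the call with both scalings. Without fed replicate 1, which had 67.9 FPKM against 25.3 and 36.6 FPKM in the other fed libraries, the fold change of Ctsc was -0.56. Ctsc also lost the call in 2 and Tpp1 in all 6 of the sets of 5 libraries. Of 14 other hydrolases and activators, 10 fell, 3 rose and 1 was not called. Smpd1, acid sphingomyelinase, had 25.7, 28.7 and 34.3 FPKM in fasted libraries, against 50.7, 54.6 and 55.5 FPKM in fed libraries (-0.85 ± 0.14, adjusted p = 0.00255). Gusb (-0.82 ± 0.19), beta-glucuronidase, and Glb1 (-0.71 ± 0.17), beta-galactosidase, fell too. The rises were Neu1 (0.72 ± 0.15), a sialidase, Hyal2 (0.65 ± 0.16), a hyaluronidase, and Lipa (0.56 ± 0.13), the acid lipase that releases fatty acids and cholesterol in the lysosome.

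Lysosomal membrane and transport genes held the largest rises of the lysosome arm. Npc1, whose product carries cholesterol out of the lysosome, had 36.2, 42.9 and 34.0 FPKM in fasted libraries, against 11.6, 8.32 and 10.4 FPKM in fed libraries (1.80 ± 0.16, adjusted p = 0.000414). Its soluble partner Npc2 went the other way, with 101, 109 and 159 FPKM in fasted libraries, against 151, 218 and 231 FPKM in fed libraries (-0.70 ± 0.22, adjusted p = 0.02). The groups overlapped for Npc2, and its call was lost with both scalings and in 4 of the 6 sets of 5 libraries (adjusted p of 0.0584 to 0.116 there). Adjusted over all annotated genes it was lost too, and its adjusted p ran from 0.00993 to 0.37 over 14 alternatives, with a fold change of -0.41 after quantile scaling. Exons of Npc1 overlap Rmc1, on the opposite strand, which had 17.2, 14.7 and 18.3 FPKM in fasted libraries, against 21.9, 24.9 and 19.3 FPKM in fed libraries. The exporters Slc17a5 (1.07 ± 0.15), of sialic acid, and Ctns (0.56 ± 0.15), of cystine, rose. Besides Lamp1, 5 of 8 genes of the membrane protein list fell, counting Npc2, whose product is soluble. Among them were Cd164 (-0.66 ± 0.14, and -0.38 with quantile scaling), a sialomucin of endosomes and lysosomes, and Mfsd8 (-0.66 ± 0.16), a lysosomal membrane transporter-like protein.

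All 3 V-ATPase genes measured, of 22 listed, were lower. They were Atp6v0e2 (-1.2 ± 0.17, adjusted p = 0.00164), Atp6v0a1 (-0.70 ± 0.20) and Atp6v1a (-0.36 ± 0.14), the last lost with both scalings and in 5 of the 6 sets of 5 libraries. Of 4 sorting genes 3 were lower, among them Gnptab (-1.11 ± 0.20), which makes the mannose 6-phosphate tag of lysosomal enzymes, and the adaptor gene Gga2 (-0.76 ± 0.18). Igf2r, a receptor for that tag, rose (0.52 ± 0.14). Exons of Stk11, Lamtor1, Prkag2, Atg2b, Wdr45, Pink1, Optn, Mfsd8, Gabarapl1, Map1lc3b, Ctsd, Glb1, Gnptab, Gga2 and Deptor also overlap another annotated gene. The longest transcripts of Bnip3l and Zkscan3 match another gene over part of their length. The match spans 663 of 3259 bases at 99.2% identity for Bnip3l, and 431 of 5788 bases at 93.3% for Zkscan3. The levels of all these genes are less certain.

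When every annotated gene not tested was given the largest possible p, 5.74% of the genes tested were called higher and 6.40% lower. Of the list genes that are not members, Ddit4, Bnip3l, Npc1 and Slc17a5 were then called higher, and Prkag3, Atp6v0e2 and Smpd1 lower. Every other call of a list gene that is not a member was lost, rises and falls alike. Without the members, 1 of 10 higher autophagy genes and 2 of 24 lower lysosome genes were left. In the lists' promoters, CACGTG was in 7 of the 20 lower lysosome genes with a RefSeq window (35.0%), in 1 of 6 higher ones (16.7%) and in 1 of 8 higher autophagy genes (12.5%). Of the nutrient sensing and transcription factor genes it was in 2 of 6 lower (33.3%) and 1 of 9 higher ones (11.1%). It was in 11.9% of the 2450 genes of the files with a window. Among the 7 were Ctsd, Glb1, Cd164, Atp6v1a and Gga2. These are counts of letters in small sets and were not tested.

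**Figure D4:**
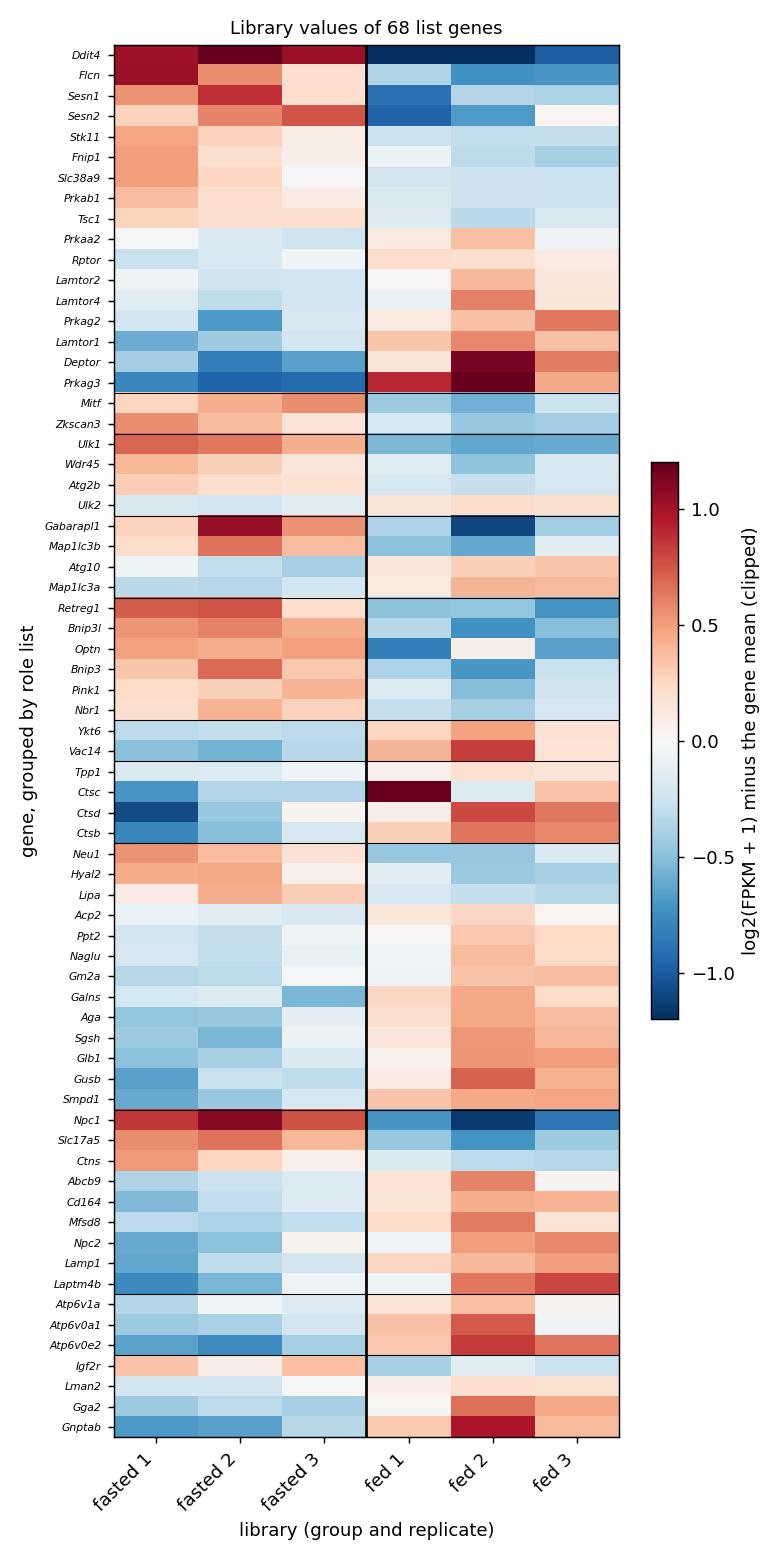
Log2(FPKM + 1) of 68 of the 70 list genes in each library, centred on each gene's mean and clipped at 1.2 either way, with fasted libraries left of fed libraries. Among fasted libraries, most lower lysosomal genes are palest in replicate 3 and darkest in replicate 1.

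The fasted libraries were not equally far from the fed ones. Of the 26 lower lysosome genes, counting Ctsb and Lamp1, which carry no test, fasted replicate 3 was nearest to the fed mean for 21 (80.8%). Fasted replicate 2 was nearest for 5 and fasted replicate 1 for none (0). Over all lower genes in the files, fasted replicate 3 was nearest for 43.5%, and over all higher genes for 71.8%. Of 13 adipocyte markers 5 were held (Plin1, Lep, Aoc3, Retn and Slc2a4), and all 5 were lower in fasted tissue. Their summed FPKM was 3240, 3138 and 3735 in fasted libraries, against 6809, 6052 and 5695 in fed libraries, so fasted replicate 3 was nearest to fed here too. Most of each sum was Retn, with 2709, 2670 and 2895 FPKM in fasted libraries, against 4786, 3761 and 3920 FPKM in fed libraries. Whether these markers follow the number of adipocytes was not tested. Endothelial markers, 3 of 8 listed, summed to 252, 261 and 199 FPKM in fasted libraries, against 139, 140 and 123 FPKM in fed libraries. Of 16 macrophage markers, a cell type rich in lysosomes, 2 were held: Itgam fell to 2.79 ± 0.94 FPKM in fasted tissue, against 6.76 ± 1.98 FPKM in fed tissue, and Clec10a rose to 38.7 ± 6.42 FPKM in fasted tissue, against 23.6 ± 2.78 FPKM in fed tissue (SD, n = 3 each). Of the other marker lists, 2 of 8 fibroblast genes were held (Dcn higher, Col1a1 lower). So were 2 of 6 lymphocyte and neutrophil genes (Cd3e under 1 FPKM throughout, S100a8 lower) and none of the 5 mesothelial or 4 muscle genes (0). Of 6 markers of epididymal epithelium 1 was held, Adam7, with 2.05 FPKM in fed replicate 2 and at most 0.03 FPKM in every other library. Without fed replicate 2, lower calls numbered 15 against 24 in the lysosome arm without members, and 1118 against 1482 over all genes tested. Whether that library held epididymal tissue was not tested. The other listed markers were not analysed here. The part of cell composition in the fall of lysosomal genes was not tested.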

How the data were processed

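Libraries were made by standard Illumina methods from total RNA of 70 mg of tissue each, per the labels' protocols. The authors deposited FPKM values, per the file headers, with at most 2 decimals, for the same 3162 genes in each of 6 libraries. RSEM, mm10 and GRCm38.p6 are named, per the submitters' processing notes; the aligner and all versions are unstated. Depth is unknown, so no counting interval is given. The rule by which these genes were chosen is not given.

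Gene identifiers were matched to GENCODE M21 (GRCm38), 3161 of them with a symbol. Groups follow the treatment label. The labels share no numbers between groups, so replicates were numbered by accession and not paired. Log2(FPKM + 1) was fitted with limma 3.58.1 in R 4.3.3 (eBayes with a variance trend), for the 2999 genes averaging 1 FPKM or more. P-values are two-sided and Benjamini-Hochberg adjusted over those genes, at 0.05. Because the files hold only part of the genes, this is not a genome-wide error rate. The fit was tested on simulated data. Near-identical transcripts were sought with BLAST 2.17.0, at 90% identity or more. Of the 245 list genes, 1 symbol was not in the annotation, and 2 are counted but not reported singly here.

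The members, role lists, markers and motifs were chosen with earlier results of these data known. Every list gene held could be named, together with the 3 genes nearest to each member in profile. Alternatives were pseudocounts of 0.1 and 5, median-ratio and quantile scaling, no minimum and a minimum of 5 FPKM, no trend, adjustment over all 55536 annotated genes, and leaving out each library.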

Additional observations from a re-analysis of the deposited data

How the results depend on the processing

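Counts here include the members. The 30 higher and 38 lower list genes became 5 and 3 when adjusted over all annotated genes, the 12 higher and 3 lower autophagy genes 2 and 0 (by limma; all 3 had an unadjusted p under 0.05), and the 7 higher and 26 lower lysosome genes 2 and 2. With median-ratio scaling 24 list genes, 1 autophagy gene and 17 lysosome genes were lower. Leaving out 1 library gave 16 to 23 lower lysosome genes. The other counts stayed within 1.5 times under every alternative run. Without the members, 24 of 27 higher and 20 of 36 lower list calls held in all 6 sets of 5 libraries and with both scalings. Over all genes tested, 1232 higher and 1482 lower calls became 1237 and 787 with median-ratio and 1207 and 1168 with quantile scaling. Leaving out 1 library gave 1128 to 1230 higher and 1036 to 1302 lower calls over all genes tested. The share of all genes whose call held in every one of these is not given here. No list gene changed sign in any alternative. The log2 fold change of Ulk1 was 1.01 at a pseudocount of 5, and reached 1.38 (median-ratio) and 1.31 (quantile) after rescaling. That of Lamp1 was -0.57 and -0.54 after the same rescalings. At a pseudocount of 5 Tsc1 was 0.25 and Atg2b 0.29. The causes were not tested. Unknown depth limits what can be said of genes near 1 FPKM. No paired analysis was possible because the labels give no shared replicate numbers.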
